A study of Mus musculus with 2 samples.

Results

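The 6 genes described here, Mir206, Mir133b, Mir1a-1, Mir1a-2, Mir133a-1 and Mir133a-2, encode the miR-1 and miR-133 families of muscle microRNAs, Mir206 belonging to the former. They were taken by name from the 2202 miRNA genes in the deposited tables, with no rule on their levels. Earlier results of these data were known when they were taken. The libraries came from C2C12, a mouse myoblast line that traces back to injured thigh muscle of C3H mice and fuses into multinucleated myotubes in culture. Cells had been differentiated for 72 h. The 2 libraries, labelled biological replicates 1 and 2, came from separate biosamples of this line and form 1 group. The labels name no treatment or transgene, and there is no undifferentiated control here. Comparisons were therefore made between genes within a library and between the libraries. A bulk library does not separate fused from unfused cells, so a share of cells and an amount of RNA per cell cannot be told apart.

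A miRNA gene is transcribed into a longer RNA that folds into a hairpin, and the hairpin is cut to release a short mature strand from either arm, called 5p and 3p. Bases 2 to 8 of the mature strand, the seed, select the messenger RNAs to be repressed. In mouse the genes of these families sit side by side in 3 loci, whose transcription is driven by myogenic factors such as MyoD and MEF2. The miR-1 family is known for promoting myoblast differentiation, and miR-133 for acting on proliferation and on serum response factor. Mir206 and Mir133b are the skeletal muscle locus, whereas the Mir1a and Mir133a copies also serve the heart.

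The mature arms of Mir206, Mir133b and Mir1a-1 are shown, with the seed in capitals as RefSeq gives them on GRCm38.p6, because the seed is what the families are grouped by. The first pair comes from Mir206 (chr1:20679010-20679082, plus strand), the next from Mir133b (chr1:20682769-20682887, plus strand), and the last from Mir1a-1 (chr2:180389048-180389124, plus strand).
mmu-miR-206-5p: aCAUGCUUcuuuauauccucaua
mmu-miR-206-3p: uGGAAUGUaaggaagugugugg
mmu-miR-133b-5p: gCUGGUCAaacggaaccaaguc
mmu-miR-133b-3p: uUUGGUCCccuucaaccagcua
mmu-miR-1a-1-5p: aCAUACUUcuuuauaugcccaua
The table of RefSeq miRNAs held mature arms for 3 of the 6 members. Base by base, the 5p arms of Mir206 and Mir1a-1 were identical at 20 of 23 positions. Counted from the 5′ end with the Mir206 base first, the differences were G5A, C17G and U19C. The first of these lies in the seed, so the 5p seeds of these genes differ.

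The hairpins of the abundant locus are shown with their mature arms in capitals, to place those arms in the precursor. Both are on chromosome 1 of GRCm38.p6, plus strand.
Mir206 hairpin: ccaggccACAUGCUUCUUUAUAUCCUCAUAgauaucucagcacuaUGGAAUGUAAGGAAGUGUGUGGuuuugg
Mir133b hairpin: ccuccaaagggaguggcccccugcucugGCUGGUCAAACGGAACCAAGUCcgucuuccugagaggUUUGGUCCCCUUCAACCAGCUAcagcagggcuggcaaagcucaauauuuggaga
Folded with RNAfold, the Mir206 hairpin of 73 bases formed 29 base pairs at -31.7 kcal/mol and the Mir133b hairpin of 119 bases formed 45 base pairs at -58.8 kcal/mol. Per base, 36.9% of the 1005 hairpins in the RefSeq table had a lower predicted energy than Mir206, and 17.3% had a lower one than Mir133b. The deposited counts are per gene, so they do not say which arm the reads came from.

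Among 1679 mature miRNAs in that table, 2 others carried the 3p seed of Mir206. The 3p arm of Mir1a-1 and the arms of Mir1a-2, Mir133a-1 and Mir133a-2 were not searched here, so family members known to share the 3p seeds of Mir206 and Mir133b are not among them. The 2 found are shown for comparison (miR-6349, chr1:39186908-39186929, minus strand, and miR-6382, chrX:106309909-106309932, plus strand).
mmu-miR-6349: uGGAAUGUgggaggggcaugcg
mmu-miR-6382: uGGAAUGUaaagagagcacacaag
Mir6349 and Mir6382 had 0 reads in both libraries, and 3 reads, taken here as the one-sided upper limit for a count of 0, would be 0.396 of every 1000000 miRNA reads in replicate 1 and 0.304 in replicate 2.

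The 3 loci differ in their annotated hosts. On mm10, Mir206 (ENSMUSG00000065559.1) and Mir133b (ENSMUSG00000065480.1) lie 3686 bases apart in Gm28653, the RNA that RefSeq names Lincmd1 and that is known as a decoy for miR-133 and miR-135 in differentiating myoblasts. All 119 bases of the Mir133b hairpin fall in exon 3 of the spliced transcript of Gm28653. Mir206 falls in an intron of that transcript, and 60 of its 73 bases fall in the only exon of a second, unspliced transcript. Mir1a-1 (ENSMUSG00000070144.1) and Mir133a-2 (ENSMUSG00000065460.1, chr2:180398379-180398482, plus strand) lie 9254 bases apart and overlap no other annotated gene. Mir1a-2 (ENSMUSG00000106348.1, chr18:10785481-10785552, minus strand) and Mir133a-1 (ENSMUSG00000065399.2, chr18:10782909-10782976, minus strand) lie 2504 bases apart in an intron of the lncRNA gene Mir133a-1hg. These hairpins also lie opposite an intron of Mib1, which encodes a ubiquitin ligase of Notch signalling. Only this locus has an annotated miRNA gene on the other strand: Mir1b spans the whole of Mir1a-2. Mir133c, which carries the family name, lies elsewhere on chromosome 2.

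**Figure D1:**
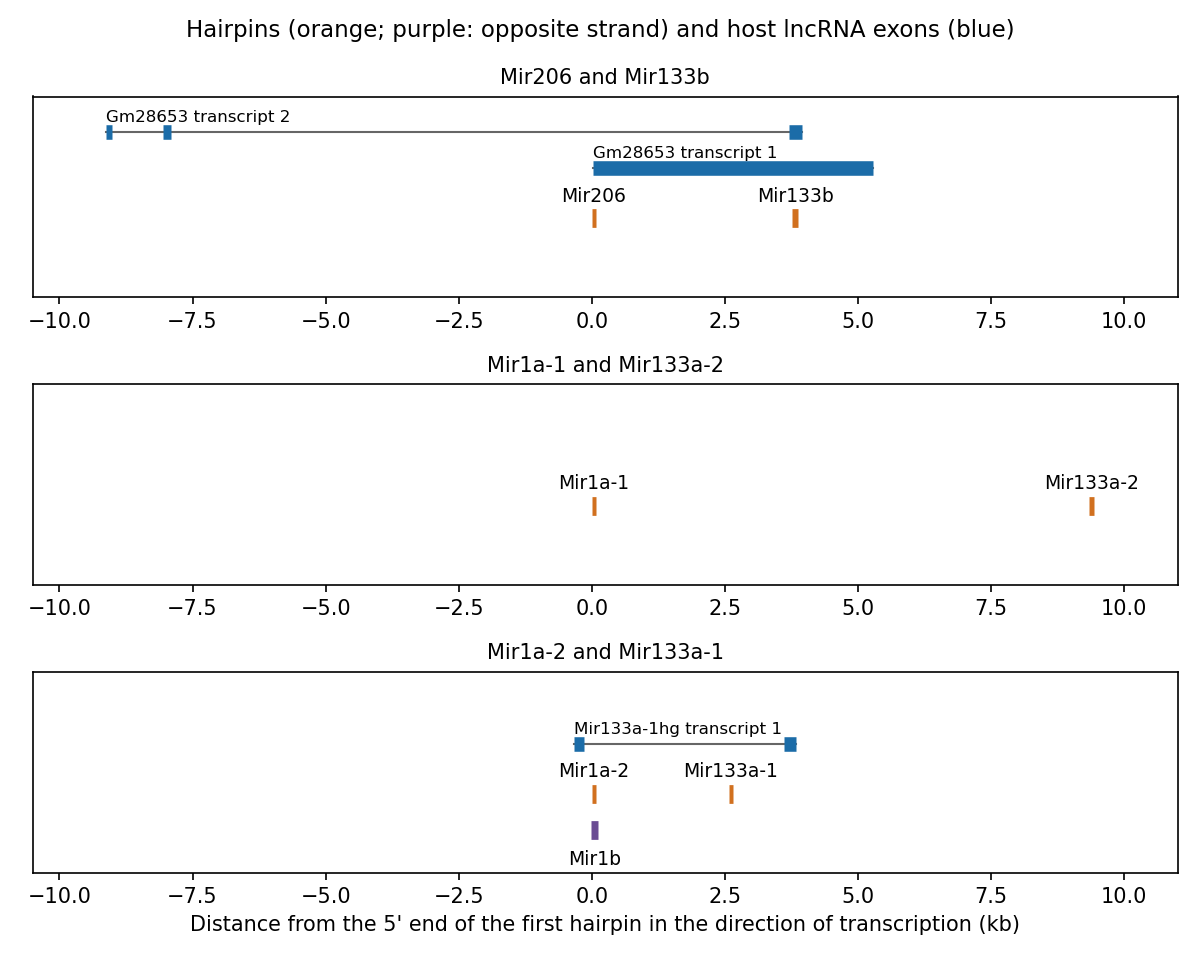
Maps of the 3 loci to 1 scale, in kb from the 5′ end of the first hairpin in the direction of transcription, with hairpins in orange, the opposite-strand Mir1b in purple and exons of lncRNA transcripts in blue (Mib1 is not drawn). Mir133b sits in an exon of both Gm28653 transcripts, and Mir1a-1 and Mir133a-2 have no annotated host.

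The window around the annotated start of the spliced host transcript is shown because that transcript holds Mir133b in an exon (chr1:20669632-20669931, GRCm38.p6, plus strand, 250 bases before and 50 after the start). Capitals mark the 2 matches of a search on both strands for CAGCTG, an E-box bound by MyoD, and for the MEF2 motif; the matches do not overlap.
Lincmd1 promoter: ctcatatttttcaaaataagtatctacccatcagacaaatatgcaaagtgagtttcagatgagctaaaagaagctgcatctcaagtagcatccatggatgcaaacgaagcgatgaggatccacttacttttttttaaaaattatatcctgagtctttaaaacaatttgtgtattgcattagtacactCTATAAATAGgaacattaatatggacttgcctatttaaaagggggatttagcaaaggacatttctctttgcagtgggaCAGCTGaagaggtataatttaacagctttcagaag
The MEF2 match began 63 bases before the start and the E-box 15 bases after it. Of 32851 promoter windows of the same length, 16.3% held the E-box, 3.19% the MEF2 motif and 0.478% both. A match describes the letters of the window and is not evidence of binding.

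Levels below are reads on the gene's own strand, or those reads in every 1000000 assigned to any miRNA gene of the library (CPM). Replicate 1 had 7581366 assigned reads of 15349205 in all, and replicate 2 had 9865298 of 18450359. Among 24 listed marker genes of blood, liver, pancreas, nerve, epithelium, endothelium and embryonic stem cells, 12 were at 0 in both libraries. The list summed to 328 CPM in replicate 1 and to 229 CPM in replicate 2. Endothelial Mir126a (217 and 42.9 CPM) and blood-cell Mir142 (89.0 and 178 CPM) made up most of it. The defining neuronal genes, the Mir124a and Mir9 copies, had 0 reads in replicate 1 and 1 read in replicate 2. Of the 12 genes at 0, 5 were among these copies. From 13.0% (Mir9-3) to 47.1% (Mir9-2) of their stretches of 22 bases also occurred elsewhere among annotated miRNA hairpins. Reads that mapped to several places are missing from these counts, which therefore do not show that the mature strands were absent. Mir126a was higher in replicate 1 and Mir142 in replicate 2. The other blood genes that differed between the libraries went against Mir142 and were higher in replicate 1. These were Mir451a (11.9 and 3.65 CPM) and Mir144 (3.43 and 0.710 CPM). The part of other cells in the library differences given further on was not tested.

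Mir206 had 2584038 reads in replicate 1 and 4111798 in replicate 2. These were 340841 and 416794 CPM, or 34.1% (95% exact Clopper-Pearson interval 34.05% to 34.12%) and 41.7% (41.65% to 41.71%) of miRNA reads. The mean was 378817 ± 53707 CPM (SD, n = 2), and Mir206 ranked first in both libraries. The gene next in order, Mir378a, had 87515 and 138481 CPM, so the values of these genes did not overlap. Intervals here cover counting error of reads only.

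Mir133b had 103180 reads in replicate 1 and 104254 in replicate 2, or 13610 and 10568 CPM, with a mean of 12089 ± 2151 CPM (SD, n = 2). It ranked 12th in each library. In order of the mean it lay between Mir130a (13952 and 18851 CPM) and Mir23b (13280 and 9884 CPM). Mir133b was below Mir130a and above Mir23b in both libraries, but its range overlapped that of Mir23b, so that order was within the spread of the libraries. Mir206 had 25.0 times the counted reads of Mir133b in replicate 1 (95% exact interval 24.89 to 25.20) and 39.4 times in replicate 2 (39.20 to 39.68).

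The copies of Mir1a, known to give the same 3p strand, had at most 4.22 CPM. Mir1a-1 had 23 and 28 reads in replicates 1 and 2, or 3.03 CPM (95% exact interval 1.92 to 4.55) and 2.84 CPM (1.89 to 4.10). Mir1a-2 had 32 and 18 reads, or 4.22 CPM (2.89 to 5.96) and 1.82 CPM (1.08 to 2.88). Mir1a-2 was the higher copy in replicate 1 and the lower in replicate 2, and the intervals of the copies overlapped within each library.

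The copies of Mir133a were in the same range. Mir133a-1 had 9 and 28 reads, or 1.19 CPM (95% exact interval 0.543 to 2.25) and 2.84 CPM (1.89 to 4.10). Mir133a-2 had 8 and 10 reads, or 1.06 CPM (0.456 to 2.08) and 1.01 CPM (0.486 to 1.86). In replicate 1 the intervals of these copies overlapped nearly throughout, and in replicate 2 that of Mir133a-1 lay above that of Mir133a-2.

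In order of the mean the members ran Mir206, Mir133b, Mir1a-2 at 3.02 ± 1.69 CPM, Mir1a-1 at 2.94 ± 0.138, Mir133a-1 at 2.01 ± 1.17 and Mir133a-2 at 1.03 ± 0.0294 (SD, n = 2). The first 2 steps of this order exceeded the spread of the libraries. The second step holds only for reads given to 1 gene, because reads that mapped to several places are missing from the copies. The ranges of Mir1a-2, Mir1a-1 and Mir133a-1 overlapped or met, and their order was not resolved. Mir133a-2 was below the other copies in both libraries, by 1 read under Mir133a-1 in replicate 1. Mir1a-2 and Mir1a-1 stood between Mir702 (1.71 and 4.36 CPM) and Mir5626 (3.43 and 2.13 CPM), Mir133a-1 between Mir3089 (1.58 and 2.53 CPM) and Mir129-2 (2.37 and 1.52 CPM), and Mir133a-2 between Mir6959 (1.32 and 0.811 CPM) and Mir7653, which had the same counts as Mir133a-2. The ranges of the copies overlapped those of each of these genes. Genes were not tested against each other, because 2 libraries allow a two-sided exact paired permutation test no p smaller than 0.5.

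**Figure D2:**
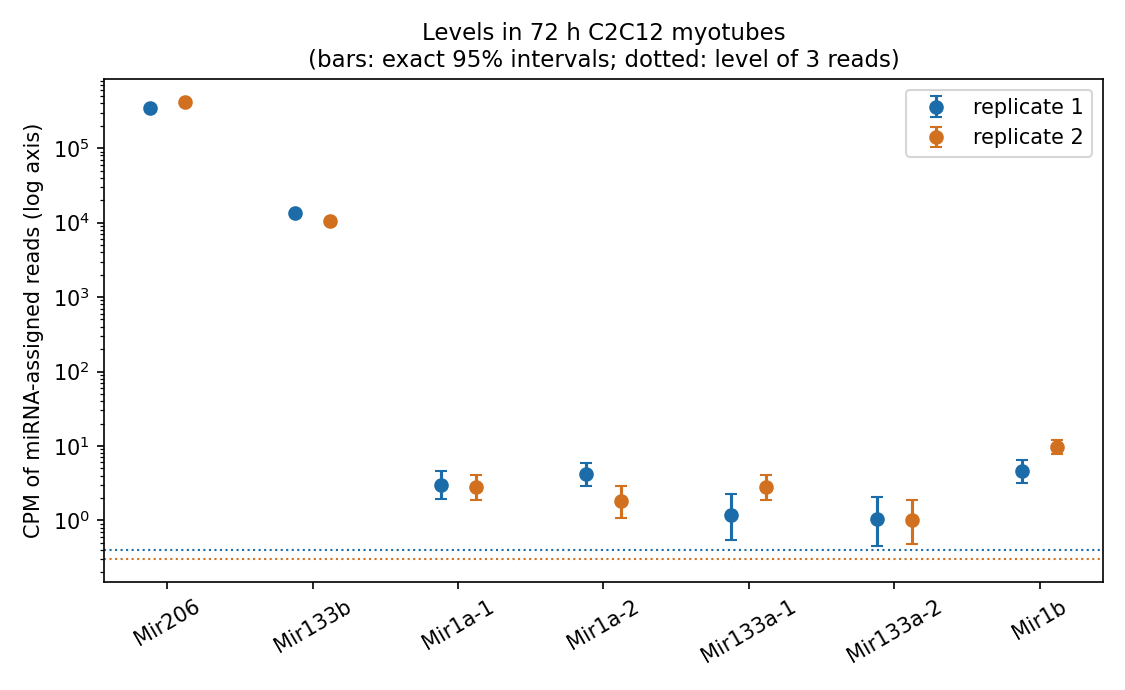
CPM of the 6 members and of Mir1b in replicate 1 (blue) and replicate 2 (orange) on a log axis, with exact 95% intervals of each library as bars and the level of 3 reads as dotted lines. Mir206 and Mir133b stand above 10000 CPM, and the Mir1a and Mir133a copies lie between 1.01 and 4.22 CPM.

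The low counts of the copies have to be read beside the reads that could not be given to 1 gene. Reads that mapped to several places numbered 3378438 in replicate 1 and 3295854 in replicate 2, or 22.01% and 17.9% of all reads, and were counted in a line of their own. In replicate 1 they were 1.31 times the reads of Mir206, and in replicate 2 they were 0.802 times that number. The 4 copies together had 72 and 84 reads. The deposited counts do not say which genes the multimapping reads came from. They therefore set no upper limit on mature miR-1a or miR-133a below the multimapping total. Neither Mir206 nor Mir133b can be ranked against those mature strands.

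Sequence shared between hairpins differed among the members. Every stretch of 22 bases, a usual miRNA length, was looked up in all 2202 annotated miRNA hairpins on both strands. None of the 52 stretches of Mir206 and none of the 98 of Mir133b occurred elsewhere. In Mir1a-1, 7 of 56 stretches (12.5%) also occurred in Mir1a-2, and in Mir1a-2 7 of 51 (13.7%) also occurred in Mir1a-1. In Mir133a-1, 13 of 47 (27.7%) also occurred in Mir133a-2, and in Mir133a-2 13 of 83 (15.7%) also occurred in Mir133a-1. These are shares of hairpin sequence and not of reads. A read from a mature strand common to both copies lies in their shared stretches and is missing from both counts. The share of reads lost in this way was not measured. Over all annotated genes, 47.5% had at least 1 shared stretch. With stretches of 20 bases, 2 of 100 in Mir133b also occurred in the Mir133a copies. Reads confined to those bases cannot be given to 1 gene and are missing from the count of Mir133b. The share of Mir133b reads lost in this way was not measured. It can be larger than the share of stretches, so the count of Mir133b is a lower limit. The search covered annotated hairpins only, and places elsewhere in the genome were not analysed here.

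**Figure D3:**
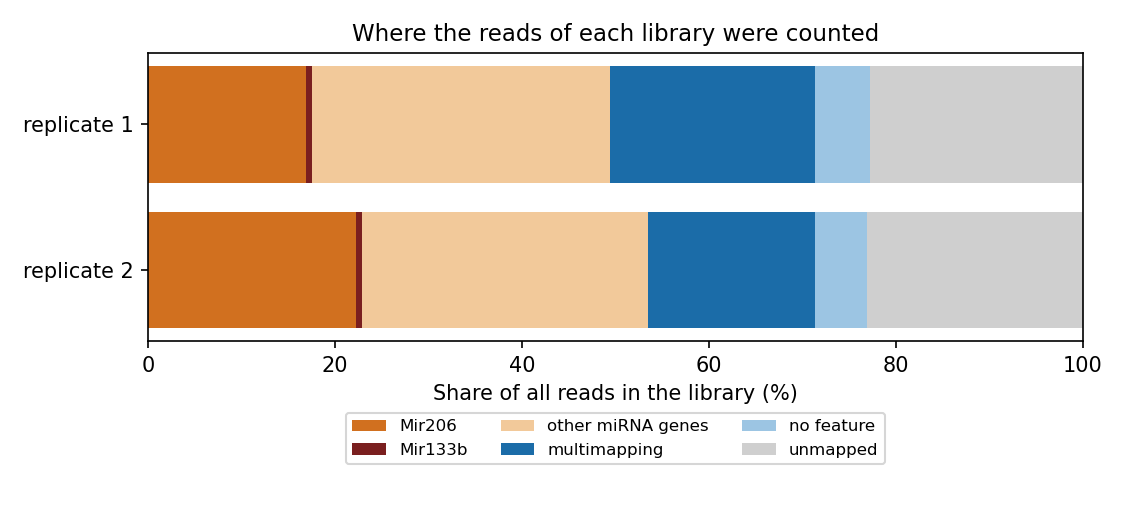
Share of all reads of each library (percent) counted at Mir206, at Mir133b, at other miRNA genes, at several places, outside miRNA genes or not mapped. The multimapping segment, 22.01% in replicate 1 and 17.9% in replicate 2, is wider than that of Mir206 (16.8%) in replicate 1 and narrower (22.3%) in replicate 2.

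The libraries differed at 4 of the 6 members by more than counting error, 2 in each direction, by an exact two-sided binomial test with TMM effective library sizes and Benjamini-Hochberg adjustment over all 415 genes with 10 or more reads in the libraries together. Over those genes 55.7% passed, 25.3% higher in replicate 2 and 30.4% higher in replicate 1, so no more is read from the members' share. That background depends on the read minimum: with 1 or more reads 31.2% of 708 genes and 3 of the 6 members passed, and with 100 or more reads 85.4% of 240 genes and both members tested, Mir206 and Mir133b. The test compares these libraries, not conditions. The median log2 ratio of replicate 2 to replicate 1 was -0.06 over the members and -0.02 over all genes tested.

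Mir206 was 1.25-fold higher in replicate 2, a log2 ratio of 0.32, and Mir133b was 1.26-fold higher in replicate 1, a log2 ratio of -0.33. Both p-values from the exact binomial test were too small for the software to represent. Most genes differed more: of 274 genes with 2 CPM or more in both, 66.1% were further apart than Mir206 and 64.6% further apart than Mir133b. Over the 132 genes averaging at least 100 CPM, those with a library ratio nearest to that of Mir206 were Mir182, Mir296 and Mir192 (log2 ratios of 0.29, 0.29 and 0.28). Nearest to Mir133b were Mir132, Mir484 and Mir342 (-0.33, -0.35 and -0.36). This likeness rests on 2 libraries.

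Mir1a-2 was 2.24-fold higher in replicate 1 (log2 ratio -1.16; exact binomial test, adjusted p = 0.0123). Mir133a-1 was 2.35-fold higher in replicate 2 (log2 ratio 1.24; exact binomial test, adjusted p = 0.0352). When every gene with at least 1 read was tested, Mir133a-1 no longer passed (exact binomial test, adjusted p = 0.059; range over the 4 alternatives that tested it 0.0245 to 0.059). Mir1a-1 (log2 ratio -0.07, adjusted p = 0.934) and Mir133a-2 (log2 ratio -0.04, adjusted p = 1) did not pass the exact test, at 8 to 28 reads a library.

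**Figure D4:**
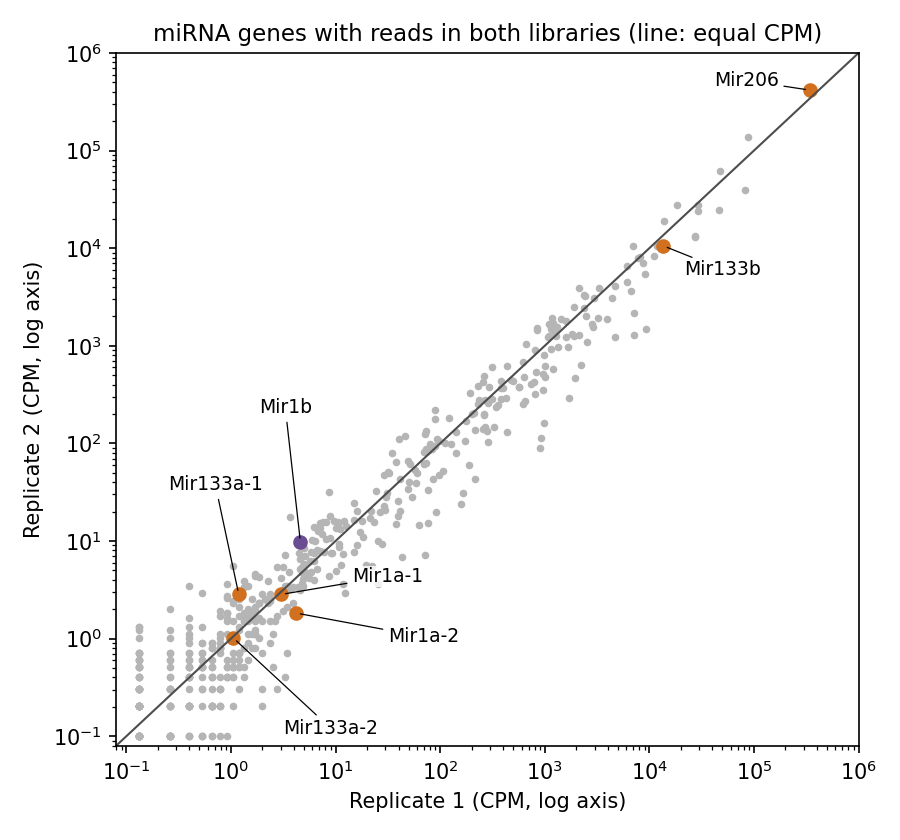
CPM of each miRNA gene with reads in both libraries, in replicate 1 and replicate 2 on log axes, with the members in orange, Mir1b in purple, other genes in grey and the line of equal CPM. Mir206 lies just above the line and Mir133b just below it, and Mir1a-2 and Mir133a-1 lie on opposite sides.

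Because neighbouring genes share a locus, their ratio was compared between the libraries, which needs no scaling of library sizes. The ratio at the Mir206 locus was higher in replicate 2: the log2 ratio of Mir206 to Mir133b was 4.65 in replicate 1 and 5.30 in replicate 2, a difference of 0.66 (Fisher's exact test, p too small for the software to represent). The ratio of Mir1a-1 to Mir133a-2 was nearly the same in both, with log2 values of 1.47 and 1.44 (Fisher's exact test, adjusted p = 1), although the 95% exact interval of the ratio ran from 1.24 to 7.43 in replicate 1 and from 1.32 to 6.46 in replicate 2. At the third locus the order of the genes, in reads given to 1 gene, differed between the libraries. Mir1a-2 had 32 reads to 9 of Mir133a-1 in replicate 1, and 18 reads to 28 in replicate 2. The log2 ratio of Mir133a-1 to Mir1a-2 went from -1.77 to 0.62, a difference of 2.40 (Fisher's exact test, adjusted p = 0.000643). Reads that mapped to several places are missing from the counts of the Mir1a and Mir133a copies. Their ratios therefore cover only the remaining reads and not all products of these genes. The ratio of Mir206 to Mir133b has this limit too. With stretches of 20 bases, Mir133b shared sequence with the Mir133a copies and Mir206 shared none. The part of such missing reads in that ratio and in its change was not tested.

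Of 65 pairs of successive miRNA genes within 10 kb on 1 strand with 10 or more reads of each gene in the libraries together, 76.9% passed the same Fisher's exact test after adjustment over all pairs, so passing does not set 2 of the 3 member pairs apart. The median difference over the pairs was 0.74 in size. The change of Mir206 to Mir133b was below that median, and 4.62% of pairs changed by more than Mir133a-1 to Mir1a-2. For the ratio itself, 18.5% of pairs were further from equality than Mir206 and Mir133b, against a median distance of 2.54 on the log2 scale.

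**Figure D5:**
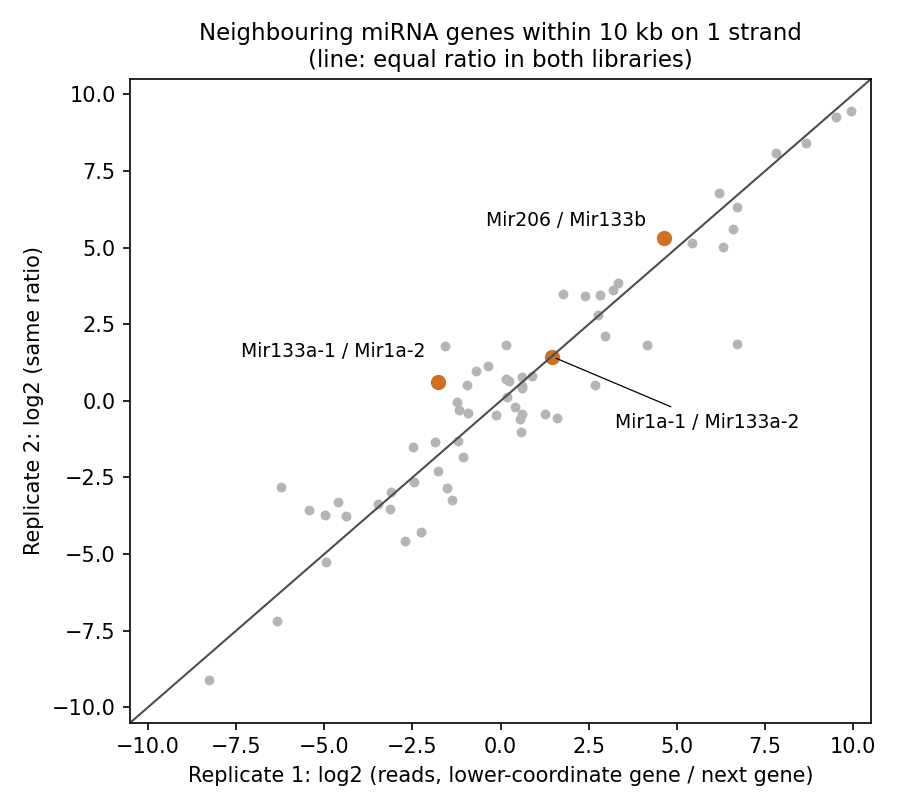
Log2 ratio of reads between neighbouring miRNA genes in replicate 1 and replicate 2 for 65 pairs, with the 3 member pairs in orange, other pairs in grey and the line of equal ratios. Mir133a-1 to Mir1a-2 lies above the line, at -1.77 and 0.62, and Mir1a-1 to Mir133a-2 lies on it.

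Mir1b, opposite Mir1a-2, differed between the libraries in the other direction. It had 35 reads in replicate 1 and 96 in replicate 2, or 4.62 and 9.73 CPM, and was 2.13-fold higher in replicate 2 (exact binomial test, adjusted p = 0.000154). Mir1a-2 had 0.914 times the reads of Mir1b in replicate 1 (95% exact interval 0.548 to 1.52) and 0.188 times in replicate 2 (0.107 to 0.312). The deposited opposite-strand column of Mir1a-2 held the same 35 and 96 reads. In the column that ignores strand both genes were listed at 0, so their values rest on the strand being read correctly. Mir133c had 0 reads in both libraries.

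The other muscle miRNAs on the list lie mostly in introns of contractile genes. Mir208b, in the slow myosin gene Myh7, had 260.4 and 495 CPM and was higher in replicate 2, as Mir206 was. Mir499, in Myh7b, had 564 and 378 CPM and was higher in replicate 1, as Mir133b was. Mir208a had 7.12 and 13.5 CPM. Mir486 had 31.1 and 30.7 CPM, and Mir3107 on its other strand had 4.35 and 9.83 CPM. All 5 together took 0.0867% and 0.0928% of miRNA reads, against 35.4% and 42.7% for Mir206 and Mir133b. Of these 5 genes, 4 passed the exact binomial test: Mir208a, Mir208b and Mir3107 were higher in replicate 2 and Mir499 in replicate 1. The median log2 ratio of the 5 was 0.94. Of 30 miRNAs listed as modulators of myogenesis, 25 passed, with 8 higher in replicate 2, 17 in replicate 1 and a median log2 ratio of -0.18. Both shares stand beside the 55.7% and the median of -0.02 over all genes, and nothing particular to these lists is read from them.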

How the data were processed

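The authors deposited raw counts of reads for each miRNA gene, made against mm10 with annotation M21, as the text deposited beside the tables says. Which aligner, counter and filters they used is not given in the sources used here. The 3 count columns have no names, and their values were read as strand ignored, the gene's strand (used here) and the opposite strand. Lines for unmapped (22.7% and 23.1%), multimapping (22.01% and 17.9%) and no-feature reads (5.88% and 5.57% of all reads in replicates 1 and 2) were left out of library sizes. All 2202 identifiers matched GENCODE M21. CPM used assigned reads as the total.

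Differences between libraries were tested with exact binomial tests on TMM effective library sizes (edgeR 4.0.16, R 4.3.3), since 1 group gives no contrast for a quasi-likelihood test, and neighbour ratios with Fisher's exact test (scipy 1.17.1, Python 3.11.15). Log2 ratios used a pseudocount of 0.5 reads. The adjusted p threshold was 0.05. Hairpins were folded with RNAfold 2.7.2. Sequences are from RefSeq, GRCm38.p6. Shared stretches were counted in GENCODE M21 transcripts, for whole hairpins and not for trimmed mature arms.

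On simulated counts for the library comparison (424 genes tested), 57.6% of genes changed 1.5-fold, 79.0% changed 2-fold and 4.00% of unchanged genes were called. For neighbour ratios (195 simulated pairs), 48.4% of changed and 1.41% of unchanged pairs were called. The simulated counts varied by counting error only (Poisson). Between the real libraries the coefficient of variation beyond counting error was 0.426 over 274 genes. The simulated rates are therefore not the rates of false calls between the real libraries.

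Named genes were the members, Mir1b and Mir133c, 5 other myomiRs, seed sharers, neighbours in rank and the 3 genes nearest in library ratio to Mir206 and to Mir133b. Mir126a, Mir142, Mir451a and Mir144 were named after their values were seen. The members and lists were chosen with earlier results of these data known. Alternatives used other scalings (DESeq2 1.42.0 size factors, library totals), denominators, read minimums, distances, stretch lengths, the column that ignores strand, and 1 library at a time.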

Additional observations from a re-analysis of the deposited data

Results flagged for a closer look

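Signals outside the counts used for the members stood above the level of 3 reads. The multimapping line held 3378438 reads of replicate 1 and 3295854 of replicate 2. On the strand opposite Mir1a-2 there were 35 reads in replicate 1 and 96 in replicate 2, the counts that the table gives to Mir1b. A single group of 2 libraries allows no search for an outlying library or for effects that differ by group.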

How the results depend on the processing

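Mean CPM depend on the denominator. Over all reads they were 195604 for Mir206, 6186 for Mir133b, 1.51 for Mir1a-1 and 0.532 for Mir133a-2. With multimapping reads added to the denominator they were 274097, 8668, 2.11 and 0.745. Without Mir206 in it, Mir133b was at 19384, Mir1a-1 at 4.73, Mir1a-2 at 4.77, Mir133a-1 at 3.33 and Mir133a-2 at 1.67. In that setting Mir133b had 20647 CPM in replicate 1 and 18120 in replicate 2, a smaller fold than with Mir206 in the denominator. With strand ignored, Mir206 was at 434234, Mir1a-1 at 3.35, Mir1a-2 at 0 and Mir133a-2 at 1.18. Leaving out each library in turn gave 340841 to 416794 for Mir206, 10568 to 13610 for Mir133b, 2.84 to 3.03 for Mir1a-1, 1.82 to 4.22 for Mir1a-2, 1.19 to 2.84 for Mir133a-1 and 1.01 to 1.06 for Mir133a-2. Without replicate 1 Mir1a-2 and without replicate 2 Mir133a-1 moved by over 1.5 times from their means. The count of 231 genes that differed between libraries was 205 to 230 under the 5 alternatives, but the share called ranged from 31.2% (221 of 708, 1 or more reads) to 85.4% (205 of 240, 100 or more reads) around the 55.7% in the report, and the 50 neighbour pairs were 38 to 54 under 3. Among member calls, Mir133a-1 was lost when genes with 1 or more reads were tested, as given in the report, because more genes were tested; where tested, the others kept direction and side of the threshold. Mir1a-2 could not be tested with strand ignored, and below 100 reads the copies dropped out. Shares of shared stretches fell with longer stretches for each of the copies, as for Mir133a-1 at 34.7%, 27.7% and 20.0% with 20, 22 and 24 bases. Mir133b had 2% with 20 bases and 0% with 22 or 24, and Mir206 had 0% at each length. At 8 to 32 reads, depth limits what can be said of the copies. No paired analysis was possible because the series has 1 group.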
